A study of Mus musculus with 4 samples.

Results

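Igfbp2 to Igfbp7, Igf1, Igf1r and Igf2r make up the insulin-like growth factor (IGF) binding proteins, ligand and receptors described here. These 9 genes were taken by name from the array annotation, out of 18193 genes with a probe set, and the family was selected on the difference between sublines of Igfbp7 and Igfbp4, which lay at opposite ends. All 9 had a probe set and all 9 passed the level filter, as did 13366 genes in all. The array carried 26 probe sets for them. Where a gene had several, the brightest one on average stands for it and the others serve as a check.

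RNA was measured on 4 oligonucleotide arrays, 2 of a tumorigenic subline called glioma-initiating cell-like (GIC) and 2 of a nontumorigenic subline (non-GIC). Both sublines came from p53-/- C57BL/6 neural stem cells of the E14.5 telencephalon, carried the activated HRasL61 on a GFP plasmid together with pBabe-neo, were selected with neomycin and were sorted for GFP. Untransfected cells and cells with p53 are no part of the comparison. Per the labels, the stem cells were grown as floating spheres without serum, with bFGF, PDGF, forskolin and bovine insulin at 10 µg/ml, so both sublines derive from cells kept in added insulin. Nothing in the labels ties the arrays within a subline to independent cultures or clones, so p-values here measure a spread that may be technical. Tumorigenicity cannot be told apart from anything else in which the sublines differ.

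IGF1 and IGF2 are secreted ligands that act through the receptor tyrosine kinase IGF1R, which feeds the PI3K-AKT and Ras-MAPK cascades. The binding proteins are secreted, hold the ligands away from the receptor or present them to it, and are cut by proteases such as PAPP-A. IGF2R, the cation-independent mannose 6-phosphate receptor, has no kinase, takes up IGF2 for degradation and sorts lysosomal enzymes.

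Because the genes were chosen with this contrast in view, their differences between sublines are given as descriptions without a test. Values are log2 signals, differences are GIC minus non-GIC on the log2 scale, and the standard error (SE) of a difference comes from the limma fit over all genes. Of the 9 genes, Igfbp7 and Igfbp2 had an adjusted p under 0.05 in that fit, both lower in GIC, against 1.92% of tested genes in either direction (0.688% lower, 1.23% higher). Leaving out non-GIC replicate 1 left 0 of them under 0.05 and leaving out non-GIC replicate 2 left Igfbp7 alone. The count is not read further, since the contrast chose the genes. Beyond 2-fold, Igfbp7, Igfbp2 and Igfbp3 were lower and Igfbp4 and Igf2r higher, against 6.63% of tested genes in either direction (4.37% higher, 2.26% lower). This count of 5 genes was 3 when GIC replicate 1 was left out. The groups did not overlap for 8 of the 9 genes, 2 higher and 6 lower, and this held for 50.4% of all tested genes (25.5% higher, 24.9% lower).

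The sequence just before the start of Igfbp7 and of Igfbp2 is shown because these genes lay furthest below non-GIC, and a short stretch before the Igfbp4 start because Igfbp4 was the highest. The sequences are from RefSeq, build GRCm38.p6, written 5′ to 3′ on the strand of the gene. They cover the 250 bases before the start on chr5:77408046-77408295 (minus strand) for Igfbp7 and on chr1:72824230-72824479 (plus strand) for Igfbp2. The Igfbp4 stretch covers 30 bases on chr11:99041204-99041233 (plus strand) and lies inside the gene's span in the RefSeq gene table, which begins further upstream. Capitals mark matches to the motifs named after the sequences.
Igfbp7: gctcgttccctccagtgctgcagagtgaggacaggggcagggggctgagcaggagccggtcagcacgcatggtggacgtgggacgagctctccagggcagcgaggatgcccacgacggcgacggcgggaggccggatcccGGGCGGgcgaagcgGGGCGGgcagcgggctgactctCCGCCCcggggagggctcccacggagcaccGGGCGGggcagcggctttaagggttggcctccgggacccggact
Igfbp2: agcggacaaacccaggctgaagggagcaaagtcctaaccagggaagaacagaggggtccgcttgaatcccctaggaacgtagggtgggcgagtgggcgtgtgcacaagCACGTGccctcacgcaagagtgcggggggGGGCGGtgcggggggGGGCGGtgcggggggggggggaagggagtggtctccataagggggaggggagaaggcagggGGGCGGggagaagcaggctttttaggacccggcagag
Igfbp4: ccagggggccggTATAAAgtcccgggagcc

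The motifs searched on both strands were the GC box (GGGCGG), the TATA box (TATAAA), the CCAAT box (CCAAT), the AP-1 site (TGANTCA), the cAMP response element (TGACGTCA), an E-box (CACGTG) and an ETS site (CCGGAAG). No match overlapped another. The Igfbp7 window held 4 GC boxes, at 110, 96, 74 and 44 bases before the start, the third of them on the other strand. The first Igfbp2 window held 3 GC boxes, at 113, 98 and 37 bases, and an E-box at 142 bases. Of 32841 windows of the same length, 32.7% held a GC box and 6.0% this E-box. The Igfbp4 window held no GC box and a TATA box 28 bases before its start, a motif present in 12.4% of windows. The Igfbp7, first Igfbp2 and Igfbp4 windows had a GC content of 74.0%, 67.2% and 69.2%, against a median of 52.4% over all windows. A second Igfbp2 window, chr1:72825137-72825386, had a GC content of 56.4%, no GC box and an AP-1 site 39 bases before its start, a motif present in 6.8% of windows. A match is a description of the letters and was not linked to any measured binding.

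Igfbp7 encodes a secreted protein of the extracellular matrix with low affinity for IGFs. Its reported probe set (1423584_at) read 12.88 and 13.35 in non-GIC and 9.04 and 8.87 in GIC. Both GIC arrays lay far under both non-GIC arrays, and arrays of a subline were 0.47 apart at most. The difference was -4.16 (SE 0.22), or 17.9-fold lower in GIC, with means of 13.11 ± 0.33 and 8.95 ± 0.12 (SD, n = 2). Of the 13366 tested genes, 9 including Igfbp7 had a difference this low. The other probe sets did not all repeat it. The probe set 1423585_at read 7.55 and 8.32 in non-GIC and 4.98 and 4.78 in GIC, where it lay under the filter level of 5.97, a difference of -3.06. The probe set 1437804_at read 8.10 and 8.06 in non-GIC and 7.89 and 8.03 in GIC, a difference of -0.12. Its groups did not overlap either, but the gap between them was a few hundredths of a log2 unit. Thus 2 of the 3 Igfbp7 probe sets were far lower in GIC and 1 read nearly the same on all arrays.

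Igfbp2 encodes a binding protein of the developing brain that also carries an integrin-binding motif. Its only probe set read 13.07 and 13.41 in non-GIC and 10.18 and 10.00 in GIC. The GIC arrays were lower without overlap, and both sublines stayed well over the filter level. The difference was -3.15 (SE 0.19), or 8.86-fold lower, with means of 13.24 ± 0.24 and 10.09 ± 0.13 (SD, n = 2). The groups were many times further apart than the arrays within them.

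Igfbp3 encodes the main IGF carrier of the blood. It read 11.97 and 11.96 in non-GIC and 10.47 and 11.36 in GIC. The non-GIC arrays were nearly equal, while GIC replicate 1 was the lowest and GIC replicate 2 lay closer to non-GIC. The difference was -1.05 (SE 0.32), or 2.07-fold lower. Leaving out GIC replicate 2 made it 2.81-fold, and leaving out GIC replicate 1 made it 1.52-fold. The second Igfbp3 probe set showed the same order of arrays, at 11.27 and 11.33 in non-GIC and 9.98 and 10.74 in GIC.

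**Figure D1:**
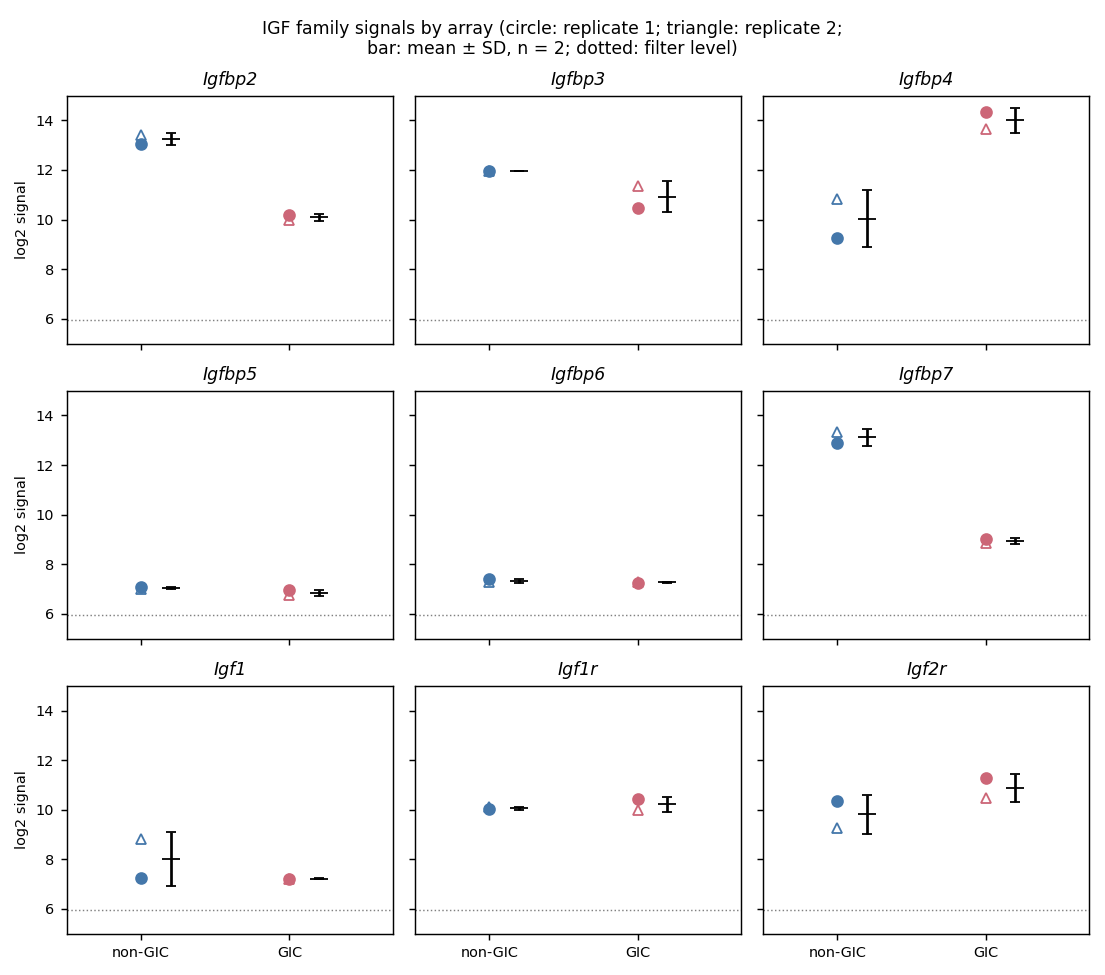
Log2 signal of each gene on the 4 arrays, with the mean ± SD (n = 2) beside the points of each subline and the filter level of 5.97 dotted. Igfbp7 and Igfbp2 are lower and Igfbp4 higher on both GIC arrays, Igf1 is highest on non-GIC replicate 2, and Igfbp5 and Igfbp6 lie near 7 on every array; signals of different genes come from different probes and are not to be ranked.

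Igfbp4 encodes an IGF binding protein that mostly inhibits IGF action and is the classic substrate of PAPP-A. Its reported probe set (1437406_x_at) read 9.24 and 10.84 in non-GIC and 14.36 and 13.65 in GIC. Both GIC arrays were higher than both non-GIC arrays, but the non-GIC arrays themselves were 1.60 apart. The difference was 3.96 (SE 0.59), or 15.6-fold higher in GIC, with means of 14.00 ± 0.50 and 10.04 ± 1.13 (SD, n = 2). Leaving out non-GIC replicate 1 made it 8.94-fold, and leaving out the other non-GIC array, replicate 2, made it 27.2-fold. Of the tested genes, 30 including Igfbp4 had a difference this high.

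All 6 Igfbp4 probe sets were higher in GIC, by 3.96 to 6.38, and the reported one had the smallest difference. Its name ends in _x_at, which marks probes shared with other transcripts. On every Igfbp4 probe set non-GIC replicate 1 was the lowest array and non-GIC replicate 2 the next, with a gap between them of 1.51 to 5.37. The widest gap was that of 1423756_s_at, which read 4.91 and 10.28 in non-GIC and 14.38 and 13.58 in GIC. The 4.91 lies under the filter level of 5.97, so this gap and the difference of 6.38 are uncertain in size. The probe set 1437405_a_at read 6.58 and 10.98 in non-GIC and 14.34 and 13.82 in GIC. The arrays labelled as 1 subline thus differed in Igfbp4 by more than most genes of the family differed between sublines. GIC replicate 1 was higher than GIC replicate 2 on all 6, by 0.52 to 1.26.

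Igfbp5, a binding protein that adheres to matrix, read 7.07 and 7.01 in non-GIC and 6.94 and 6.77 in GIC. The difference was -0.18 (SE 0.13). Its second probe set was under the filter level on all 4 arrays. Igfbp6, which prefers IGF2 as ligand, read 7.40 and 7.29 in non-GIC and 7.26 and 7.28 in GIC, a difference of -0.07 (SE 0.13). For both genes the gap between sublines was of the size of the gap between arrays of a subline.

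Igf1, the ligand itself, was highest on non-GIC replicate 2. Its reported probe set read 7.25 on non-GIC replicate 1, 8.80 on non-GIC replicate 2, and 7.21 and 7.23 on the GIC arrays. The difference of -0.81 (SE 0.52) became -0.03 when non-GIC replicate 2 was left out and -1.58 when replicate 1 was. All 4 Igf1 probe sets had their highest value on non-GIC replicate 2, which exceeded non-GIC replicate 1 by 0.56 to 1.62. The GIC arrays were within 0.16 of each other on all 4. On all 4 probe sets non-GIC replicate 1 also lay above both GIC arrays, with the smallest margin on the reported one. It read 7.47 against 6.86 and 7.02 on 1452014_a_at and 6.84 against 6.46 and 6.45 on 1419519_at. On 1434413_at it read 6.91 against 6.81 and 6.67. Within non-GIC, replicate 2 was thus higher than replicate 1 on every probe set of both Igf1 and Igfbp4.

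**Figure D2:**
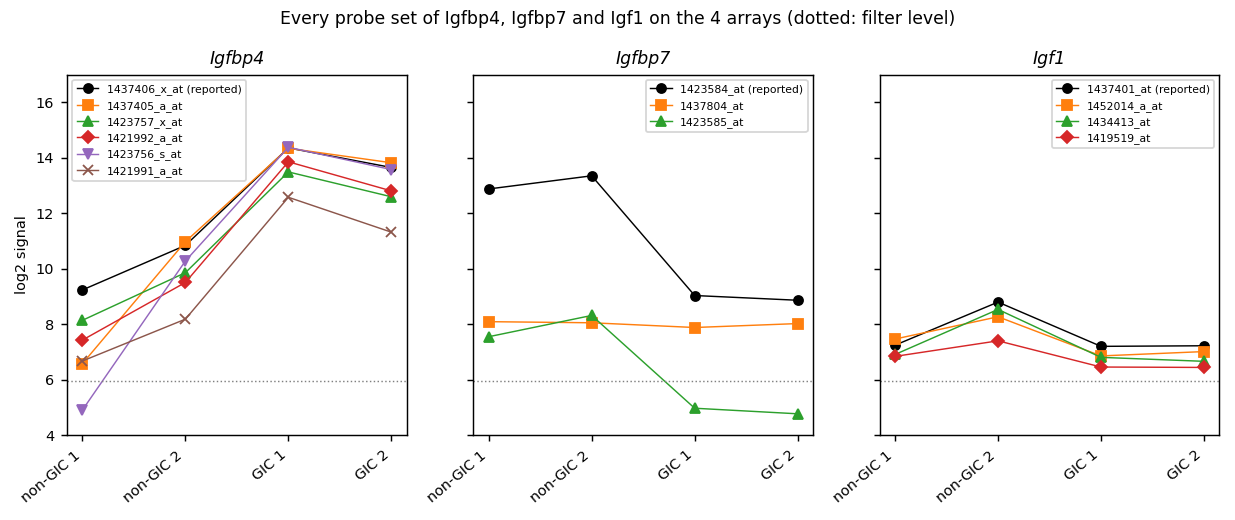
Log2 signal of every probe set of Igfbp4, Igfbp7 and Igf1 on the 4 arrays; lines join the values of 1 probe set and carry no order, black marks the reported probe set and the dotted line the filter level of 5.97. All 6 Igfbp4 probe sets are lowest on non-GIC replicate 1, next on non-GIC replicate 2 and highest on the GIC arrays, 2 of 3 Igfbp7 probe sets are far lower in GIC, and all 4 Igf1 probe sets peak on non-GIC replicate 2.

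Igf1r, the signalling receptor, differed little. It read 10.02 and 10.11 in non-GIC and 10.42 and 10.01 in GIC, and the groups overlapped. The difference was 0.15 (SE 0.21), and the 5 Igf1r probe sets gave 0.05 to 0.19. Without GIC replicate 1 the sign turned, to -0.06. Igf2r read 10.37 and 9.27 in non-GIC and 11.27 and 10.49 in GIC. The GIC arrays were higher, but the lower of them exceeded non-GIC replicate 1 by far less than the non-GIC arrays were apart. The difference was 1.06 (SE 0.47), or 2.09-fold, and it moved to 3.06-fold when non-GIC replicate 1 was left out and to 1.42-fold when replicate 2 was. The second Igf2r probe set gave 0.84, and there the groups overlapped, with GIC replicate 2 at 9.38 and non-GIC replicate 1 at 9.41.

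**Figure D3:**
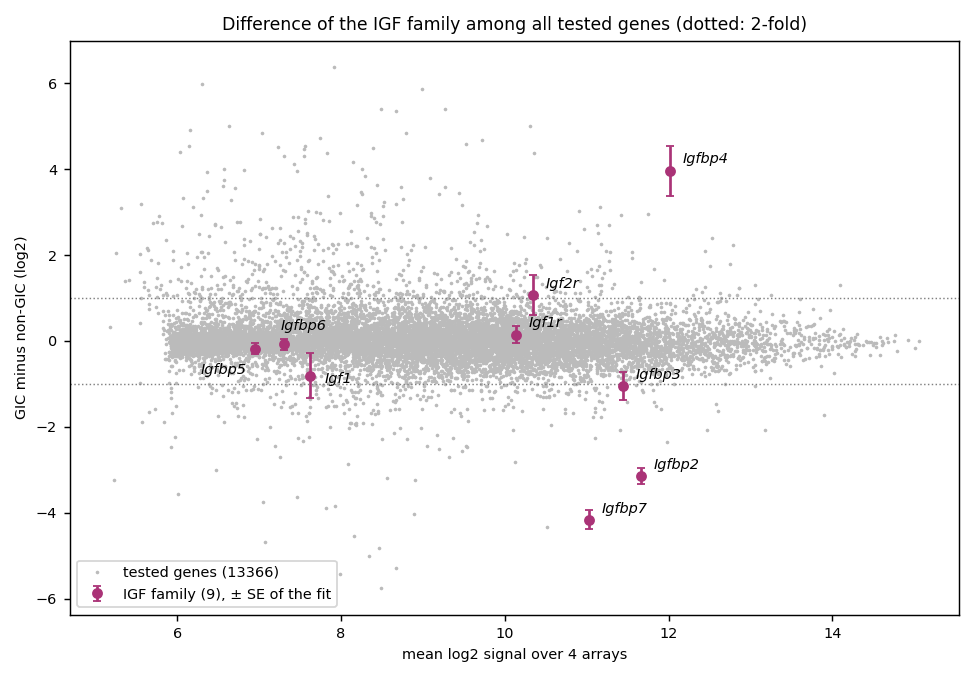
Difference between sublines (GIC minus non-GIC, log2) against the mean log2 signal over the 4 arrays, for 13366 tested genes in grey and the 9 IGF genes in colour with ± SE of the fit; dotted lines mark 2-fold. Igfbp4 at 3.96, Igfbp2 at -3.15 and Igfbp7 at -4.16 lie far from the bulk of genes, while Igf1r, Igfbp5 and Igfbp6 lie within it.

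The median difference of the 9 genes was -0.18, against -0.01 over all tested genes. Igfbp2 and Igfbp5 are neighbours on chromosome 1, with 5590 bases and no other gene start between them in the RefSeq table. Their differences were -3.15 and -0.18. Igfbp5 read only 6.77 to 7.07, near the array medians of 6.58 to 6.63. Such a low signal limits how far a fall could show, so these differences are not compared. Igfbp3 lies 3539 bases from Igfbp1 on chromosome 11, and Igfbp1 was under the filter level on all 4 arrays. The 3 nearest tested genes on each side of every member made 48 distinct genes outside the family. Of these, 0 passed limma's adjusted threshold and 8 had an unadjusted p under 0.05, against 1.92% and 17.9% of all tested genes. Their differences ran from -1.14 to 1.03, so none was near those of Igfbp7, Igfbp2 or Igfbp4.

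Among tested genes, those whose 4 values centred on their mean lay closest to Igfbp7 were the glucose transporter Slc2a3 (root mean square distance 0.19), Cap2 (0.26) and the pyruvate dehydrogenase kinase Pdk4 (0.31). All 3 lay under the filter level of 5.97 on both GIC arrays, so they were tested only through their non-GIC values and their distances are uncertain. The closest to Igfbp4 were the inhibin beta B chain gene Inhbb (0.23), the interferon-induced Ifit3 (0.31) and the matricellular Ccn5 (0.33). Inhbb read 6.56 and 8.39 in non-GIC and 11.56 and 10.56 in GIC, a pattern that the choice by likeness fixes. Likeness over 4 arrays is a description and carries no test.

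The other genes of the pathway were grouped in 4 lists, of which 60 of 66 genes were tested. None of the 60 passed limma's adjusted threshold, against 1.92% of all tested genes. Of the 60, 10 had an unadjusted p under 0.05, against 17.9% of all tested genes. These shares also apply to the pathway and marker lists below, where a count of 0 is not read as no change. The median difference of the 60 was -0.0023, and 33 of them, or 55%, had groups without overlap. These values lie close to those of all tested genes.

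Among 8 tested genes of the ligand, carrier and related binding list, 0 passed limma's adjusted threshold and 1 had an unadjusted p under 0.05, with a median of -0.03. The gene was Igf2, the fetal ligand, at 6.65 and 6.73 in non-GIC and 7.68 and 7.45 in GIC (difference 0.88, SE 0.14, limma adjusted p = 0.0713). Its second probe set was under the filter level on all arrays. Kazald1, a secreted protein with an IGFBP-type domain, had -0.88 (SE 0.36, limma adjusted p = 0.308). The insulin receptor Insr read 7.59 and 8.02 in non-GIC and 8.38 and 8.17 in GIC.

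Of 10 tested IGFBP proteases and inhibitors, 0 passed limma's adjusted threshold and 3 had an unadjusted p under 0.05, and the median was 0.40. Without overlap, 2 of them were higher and 3 lower in GIC, while 50.4% of all tested genes had no overlap. The median is thus not read as a shared rise of the list. Stc1, a stanniocalcin that inhibits PAPP-A, read 6.64 and 6.86 in non-GIC and 8.68 and 8.02 in GIC. Its difference was 1.60 (SE 0.26, limma adjusted p = 0.0715), and it ran from 1.27 to 1.93 over left-out arrays. With the replicate block the limma adjusted p was 0.204, and with the mean of probe sets it was 0.0983. Stc1 passed without GIC replicate 2, in a fit that rests on a lone GIC array. It also passed with a block of crossed replicate numbers, which was chosen after seeing the data. The second Stc1 probe set was under the filter level on all 4 arrays. The metalloprotease Adam12 had -0.65 (SE 0.18, limma adjusted p = 0.168). Pappa, which encodes the PAPP-A protease that cuts Igfbp4, read 6.03 and 6.63 in non-GIC and 6.69 and 6.55 in GIC, with overlapping groups.

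Of 31 tested signal transduction genes, 0 passed limma's adjusted threshold and 5 had an unadjusted p under 0.05, with a median of -0.05. The PI3-kinase catalytic subunit Pik3cb read 9.78 and 9.60 in non-GIC and 8.36 and 8.71 in GIC (difference -1.15, SE 0.20, limma adjusted p = 0.0784). Eif4ebp1, a translation repressor under mTOR control, had -0.58 (SE 0.17, limma adjusted p = 0.188). With non-GIC replicate 2 left out, the adaptor Grb10 passed (limma adjusted p = 0.0332), against a lone non-GIC value of 5.10 that lies under the filter level; its difference with all arrays was 4.67. The receptor substrate Irs1 had 0.03 and Irs2 -0.10. Of 11 tested mannose 6-phosphate sorting partners of Igf2r, 0 passed limma's adjusted threshold and 1 had an unadjusted p under 0.05. M6pr, the smaller mannose 6-phosphate receptor, had -0.59 (SE 0.15, limma adjusted p = 0.160). Nagpa, which completes the mannose 6-phosphate tag, had 0.34 (SE 0.15, limma adjusted p = 0.326).

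**Figure D4:**
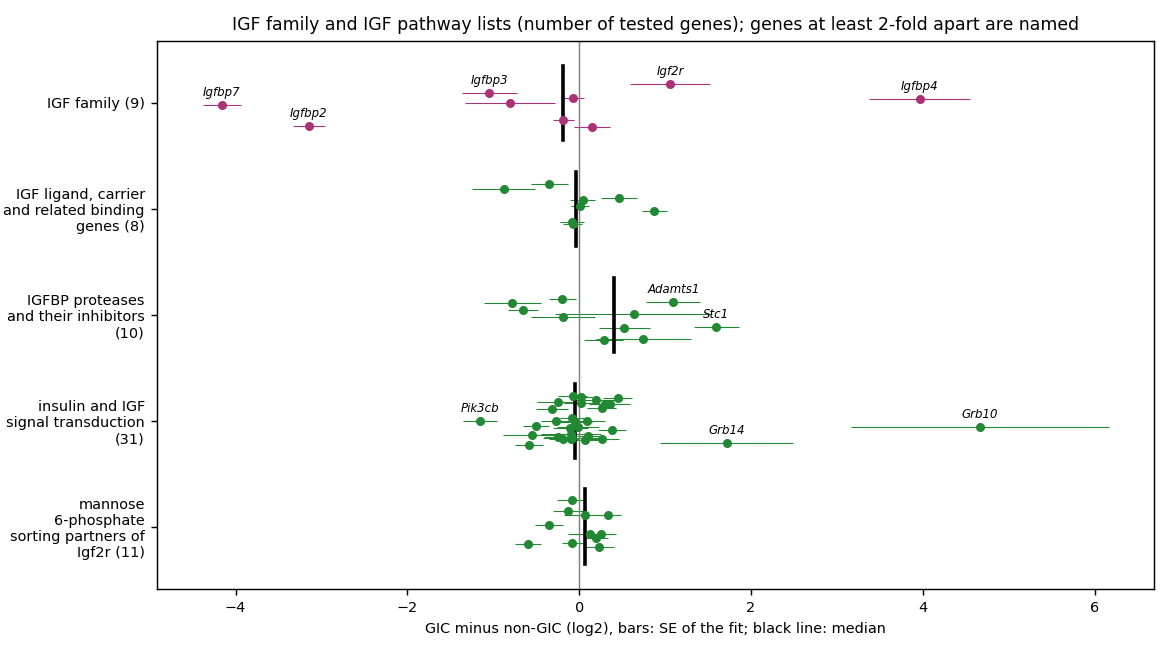
Difference between sublines (GIC minus non-GIC, log2) of the tested genes of the IGF family and of 4 pathway lists, with bars for the SE of the fit, a black line for each list's median and names for genes at least 2-fold apart; vertical scatter within a list has no meaning. The median of the list of proteases and their inhibitors is 0.40, with genes on both sides of 0. Those of the other lists lie near 0, and the bar of Grb10 spans several log2 units.

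The labelled cell type was checked with 12 neural stem cell markers, of which 9 were tested. Vim was near 14.6 on all arrays and Sox2 read 11.2 and 11.4 in non-GIC and 10.2 and 10.6 in GIC. Nes fell by 2.07 (limma adjusted p = 0.0459) and Fabp7 fell by 1.51 (limma adjusted p = 0.0258) on the log2 scale. Both GIC arrays of Fabp7 had the identical value of 5.23, under the filter level. Fabp7 was thus tested only through its non-GIC values, and the size of its fall and its p are uncertain. Olig2 and Prom1 were under the filter level on every array. Of 6 tested neuronal markers Map2 fell by 2.29 (limma adjusted p = 0.0190), while Tubb3 had a difference of 1.15 and did not pass (limma adjusted p = 0.363). These calls were lost when any 1 array was left out, with limma adjusted p from 0.0898 to 0.166 for Nes, 0.0507 to 0.110 for Fabp7 and 0.0502 to 0.0785 for Map2. Of 5 tested astrocyte and 5 tested oligodendrocyte markers, 0 passed limma's adjusted threshold and 0 had an unadjusted p under 0.05. Over all tested genes these shares were 1.92% and 17.9%.

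Igfbp7 and Igfbp4 are also known from vessel and stromal cells. Of 10 endothelial markers 5 were under the filter level on all arrays, Pecam1, Cdh5, Tek, Emcn and Vwf, and none of the other 5 passed limma's adjusted threshold (1 had an unadjusted p under 0.05). The summed endothelial signal (log2) was 10.12 to 10.25 in non-GIC and 10.44 to 10.54 in GIC. Flt1, a VEGF receptor, had a difference of 0.92 (limma adjusted p = 0.165), while the median difference of the 5 tested genes was 0.003. Of 10 mural and fibroblast markers 8 were tested and Acta2, a smooth muscle actin, fell by 1.71 (limma adjusted p = 0.0348). Its adjusted p was 0.200 and 0.164 when non-GIC replicate 1 or 2 was left out, and its difference was -3.68 with the probe set used once _x_at and _s_at ones were set aside. Other members lay on both sides. The collagen genes Col1a2 and Col3a1 had differences of 1.26 and 0.77 and Dcn one of 0.52. Col1a1 had -2.06, Tagln -1.24 and Pdgfrb -0.19, and none of these other members passed. Arrays within a subline were far apart for some. Col1a2 read 11.46 and 9.28 in non-GIC and 11.55 and 11.72 in GIC. Col1a1 read 13.84 and 14.57 in non-GIC and 13.59 and 10.70 in GIC. For Col3a1, Dcn and Pdgfrb the groups overlapped. The summed signal of all 10 mural and fibroblast markers, Acta2 included, was 15.78 to 15.97 in non-GIC. It was 15.56 and 14.18 for the GIC replicates 1 and 2. The part of such cells in the Igfbp7, Igfbp2 and Igfbp4 values was not tested. Fewer cells of a type and less RNA per cell cannot be told apart in these bulk samples. Igf1 is also a product of microglia. Of 7 microglial and leukocyte markers, Ptprc, Aif1, Itgam and Tyrobp were under the filter level on all arrays. Csf1r read 7.55 and 7.57 in non-GIC and 7.26 and 7.26 in GIC. Cd68 read 6.20 and 6.54 in non-GIC and 7.03 and 6.77 in GIC. Cx3cr1 lay barely above the filter level on GIC replicate 1 and under it on the other arrays. The summed microglial and leukocyte signal was 8.81 and 8.78 in non-GIC and 8.85 and 8.79 in GIC, and its part in the Igf1 values was not tested. Of 2 tested genes of this list 0 passed limma's adjusted threshold and 1 had an unadjusted p under 0.05.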

How the data were processed

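The labels state that 5 µg of RNA per sample was biotin-labelled by in vitro transcription. The deposited table holds log2-scale signals for 45101 probe sets on 4 arrays; the scale was read from the values (2.75 to 15.12), and array medians of 6.58 to 6.63 show prior normalization, whose method is not given in the sources used here. Of the probe sets, 34945 had 1 gene symbol (updated by Entrez identifier to the GRCm38.p6 RefSeq table), 932 several and 9160 none; 64 were controls. Genes with at least 2 arrays above 5.97, the 40th percentile, were fitted with limma 3.58.1 in R 4.3.3 (eBayes with trend, group only, 2 residual and 2.72 prior degrees of freedom, two-sided, Benjamini-Hochberg over 13366 genes, threshold 0.05). An exact permutation test of 1 gene cannot go below p = 0.33 here, and the number of arrays limits precision. The procedure was tested on simulated data with independent arrays, which do not cover arrays that share a culture or other structure.

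The members and lists were chosen with earlier results of these data known. The naming rule took the 9 genes; per pathway list the genes past the threshold (at most 6) or else the 2 with the smallest p; the 3 genes nearest in pattern to Igfbp7 and to Igfbp4 (root mean square distance of centred values); Nes, Sox2 and Vim; and markers past the threshold. Insr, Pappa, Irs1, Irs2, Igfbp1, Grb10, Grb14, Tubb3, Flt1, Col1a1, Col1a2, Col3a1, Dcn, Tagln and markers under the filter level were named after their values were seen. So were Csf1r, Cd68, Cx3cr1 and Pdgfrb. All 9 genes matched the promoter table, with 10 windows. Protein features were not analysed here. Alternatives were a replicate block, quantile normalization, median centring, other filters and probe set choices, eBayes without trend or robust, and leaving out each array. Plots used matplotlib 3.10.9 (Python 3.11.15).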

Additional observations from a re-analysis of the deposited data

How the results depend on the processing

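The sign of 8 of the 9 genes' differences held under every alternative scaling, probe set and left-out array; Igf1r turned to -0.06 without GIC replicate 1. The Igfbp4 difference moved from 3.96 to 4.84 with the mean of its probe sets, to 5.30 without _x_at and _s_at probe sets, and to 5.30, 4.86 and 6.38 with single other probe sets; it ran from 3.16 to 4.77 over left-out arrays. The Igfbp7 difference moved from -4.16 to -2.45 with the mean of its probe sets and to -0.12 and -3.06 with its other probe sets, and ran from -4.40 to -3.93 over left-out arrays. The number of the 9 genes at least 2-fold apart was 5, but 3 with the mean of probe sets and 3 to 6 over left-out arrays. Of the 257 genes called in all, 12 to 188 were called over left-out arrays (12, 56, 77 and 188 when non-GIC replicates 1 and 2 and GIC replicates 1 and 2 were left out). Of the 9 genes, 2 were called with all arrays, 0 when non-GIC replicate 1 was left out, 1 when non-GIC replicate 2 was, and 2 when either GIC array was. A lone array left in a subline was taken to vary as the remaining groups do. The 0 pathway genes called became 0 to 1 over left-out arrays.

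Replicate numbers are shared between the sublines, but the labels do not say that they pair samples, and deviations of same-numbered arrays from their group means correlated at -0.32 over genes. With the replicate block 29 genes in all and 0 of the 9 were called. A block with crossed numbers, chosen after seeing the data, called 685 genes in all, 4 pathway genes and 3 of the 9, adding Igfbp4 to Igfbp2 and Igfbp7. The calls of Nes, Fabp7, Map2 and Acta2 were lost with the replicate block (adjusted p = 0.126, 0.0846, 0.106 and 0.127), and those of Nes, Fabp7 and Map2 with any array left out; Nes also without a filter and without a trend. The cause was not tested for any of these.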

Other observations

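Grb10 and Grb14, adaptor proteins that bind the insulin and IGF1 receptors and dampen their signal, had the widest upward differences of the 31 tested signal transduction genes; both were singled out after their values were seen. Grb10 read 5.10 on non-GIC replicate 1, 9.68 on non-GIC replicate 2, and 12.19 and 11.93 on the GIC arrays. Its difference was 4.67 (SE 1.50), with a limma adjusted p of 0.222, and it was 5.21-fold when non-GIC replicate 1 was left out. When replicate 2 was left out it passed (adjusted p = 0.0332), but the lone non-GIC value then lies under the filter level of 5.97, so no fold is given. All 3 Grb10 probe sets had the same order of arrays, with differences of 2.57 to 4.67 and gaps between the non-GIC arrays of 1.29 to 4.58. On each of them non-GIC replicate 1 lay under the filter level, at 5.10, 5.26 and 5.43, so these differences and gaps are uncertain in size. Grb14 read 7.98 and 9.67 in non-GIC and 11.34 and 9.74 in GIC, a difference of 1.72 (SE 0.78, limma adjusted p = 0.346). As with Igfbp4, the lowest array for both was non-GIC replicate 1.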
